A study of Rattus norvegicus with 31 samples.

Results

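Blood samples of rats were compared by how much platelet RNA they held, as 10 platelet-rich arrays against 10 platelet-poor arrays out of 31. Each array was ranked by its 4-gene platelet level, the mean log ratio of Ppbp, Gp1bb, Itgb3 and Vwf on that array, with the probes of a gene averaged first. The 10 highest arrays form the platelet-rich set, the 10 lowest the platelet-poor set, and 11 arrays are in neither. The sets were thus chosen by the measured log ratios of these 4 genes, whose values are given as a description. All other genes stayed out of the ranking, but they were measured on the same arrays, so whatever the probes of one array share enters both.

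The RNA came from peripheral blood mononuclear cells (PBMC), a fraction of lymphocytes and monocytes, of adult offspring of 16 mated rats. CR-L animals, on 13 arrays, were born to dams fed 20% less on days 1 to 12 of pregnancy, and were given leptin, a hormone of fat tissue, while suckling until postnatal day 21. Their daily dose grew through that period, starting at 1.0 ng and ending at 43.8 ng, which was 5 times the intake from milk. CR animals, on 11 arrays, came from dams restricted in the same way and were suckled without leptin. WT animals, on 7 arrays, were offspring of unrestricted dams. All offspring had chow for 4 months before the blood was drawn. Each array carried 1 sample in red (Cy5) against the same pool of RNA from 5 samples per group in green (Cy3), so every value is a log2 ratio of sample over pool. Both sexes were used, but neither the sex nor the litter of a sample is labelled. The 31 samples come from at most 16 litters, so p-values that treat them as independent may be too small.

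Platelets are small fragments shed by megakaryocytes of the bone marrow. They have no nucleus, and the RNA they carry is what the megakaryocyte packed into them. They stop bleeding by sticking to exposed vessel wall through surface glycoproteins, releasing the contents of their granules, contracting and clumping through integrin alpha-IIb beta-3. A PBMC fraction is prepared from whole blood by density and usually retains some platelets. In a bulk sample, fewer platelets and less RNA per platelet cannot be told apart.

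The probes that set the ranking are shown first, with their positions on rat build rn4 as the array files give them. Ppbp encodes a platelet granule chemokine and was read at chr14:18816439-18816498, minus strand. Gp1bb encodes a subunit of the receptor for von Willebrand factor and was read at chr11:84370858-84370917, plus strand. Vwf encodes that factor, which platelets also store, and was read by a pair of probes at chr4:161809533-161809592 and chr4:161853997-161854486, plus strand. The second of these intervals is wider than the probe. Itgb3 encodes integrin beta-3, and no position is given here for its probe.
Ppbp probe: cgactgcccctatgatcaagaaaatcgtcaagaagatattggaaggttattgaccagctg
Gp1bb probe: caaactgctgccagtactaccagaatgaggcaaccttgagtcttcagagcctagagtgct
Vwf probe, first: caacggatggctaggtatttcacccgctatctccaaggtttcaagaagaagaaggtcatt
Vwf probe, second: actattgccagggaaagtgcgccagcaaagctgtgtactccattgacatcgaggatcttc
Itgb3 probe: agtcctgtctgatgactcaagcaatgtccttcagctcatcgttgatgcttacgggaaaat

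The 4-gene level ran over more than 3 log2 units, from 0.84 in CR-L replicate 4 at the top to -2.78 in CR-L replicate 3 at the bottom. The platelet-rich set was CR-L replicates 4 (0.84), 2 (0.45), 1 (0.35), 13 (0.33), 6 (0.32) and 10 (0.26), CR replicates 3 (0.80), 2 (0.54) and 6 (0.35), and WT replicate 2 (0.23). The platelet-poor set was CR-L replicates 9 (-0.99), 11 (-1.001), 7 (-2.42) and 3 (-2.78), CR replicates 4 (-0.43), 9 (-0.59) and 11 (-0.65), and WT replicates 6 (-0.51), 1 (-0.92) and 7 (-1.46). The upper edge is narrow, since WT replicate 2 just inside it had 0.227 and CR replicate 5 just outside it 0.227 as well. The lower edge is almost as narrow, with CR replicate 4 inside at -0.428 and WT replicate 4 outside at -0.398. The 2 lowest arrays stood apart from all others by nearly a full log2 unit, and results are given without them where that changes a call or a count by more than 1.5 times.

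**Figure D1:**
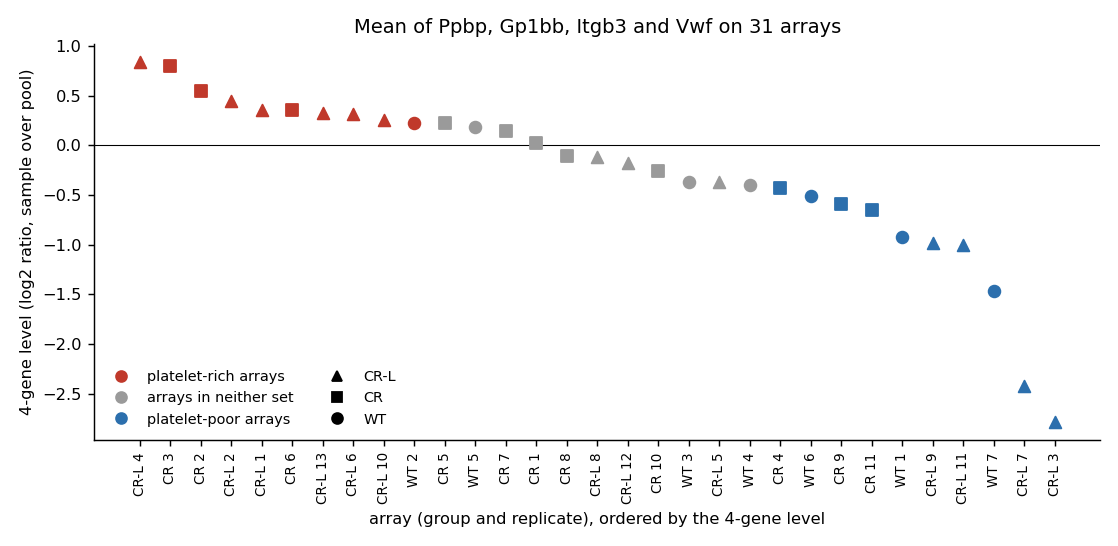
The 4-gene platelet level (log2 ratio of sample over pool) of each of the 31 arrays, ordered along the horizontal axis, with colour for the set and marker shape for the treatment group. Levels fall gradually through the platelet-rich arrays and the arrays in neither set, and CR-L replicates 7 and 3 lie lowest at -2.42 and -2.78.

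Both sets held all treatment groups. The platelet-rich set had 6 CR-L, 3 CR and 1 WT array, and the platelet-poor set had 4 CR-L, 3 CR and 3 WT arrays. By treatment the 4-gene level averaged 0.0046 ± 0.46 in CR (SD, n = 11) and -0.46 ± 0.59 in WT (SD, n = 7). It averaged -0.41 ± 1.11 in CR-L (SD, n = 13), which held both the highest array and the lowest.

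Array quality did not separate the sets. Median red intensity ran from 69.8 over a median of 83.4 to 93.9 in platelet-rich arrays, against 77.8, 81.1 and 235 in platelet-poor arrays (permutation p = 0.50). The 235 belonged to WT replicate 6, where 83.6% of red spots were well above background, against 57.5% to 65.0% on all other arrays of the 2 sets. Without it the highest platelet-poor array was at 89.5. The arrays lay on 8 slides. Slide 7 held 3 platelet-poor arrays and no platelet-rich one, slide 2 held 3 platelet-rich arrays and 1 platelet-poor one, and 6 slides held both sets. Markers of the labelled cells were present, since Cd3e of T cells, Ms4a1 of B cells and Cd14 of monocytes were well above background on all 31 arrays. So were the red cell gene Hbb and the granulocyte gene S100a9, whose cells a mononuclear fraction is meant to lack.

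Between platelet-rich and platelet-poor arrays 1092 of 22041 features passed limma at a Benjamini-Hochberg adjusted p under 0.05, which is 4.95% of those tested. Of these 998 were higher in platelet-rich arrays (4.53%) and 94 were lower (0.426%). The differences on the higher side were also larger. Of all features, 170 were higher by at least 1 on the log2 scale (0.771%) and 4 were lower by as much (0.0181%), none of the 4 past the threshold. In 250 features every platelet-rich array lay above every platelet-poor array (1.13%), and in 1 every platelet-rich array lay below (0.00454%). The median difference of all features was -0.0059.

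Without CR-L replicates 3 and 7, 811 features were higher in platelet-rich arrays and 47 lower. The lower count moved more than the higher one with other arrays as well, to 158 without WT replicate 2 and 148 without CR replicate 4. With slide as a fixed block 779 were higher and 30 lower.

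The 15 largest increases past the threshold ranged from 1.85 to 2.39. Treml1, a receptor kept in platelet granules and carried to the surface on activation, had -0.03, 0.62 and 1.08 as its lowest, median and highest log2 ratio in platelet-rich arrays, against -4.80, -1.28 and -0.34 in platelet-poor arrays. It was higher by 2.39 ± 0.45 on the log2 scale (SE, adjusted p = 0.00124 in limma). Its lowest platelet-rich array was above its highest platelet-poor one, and CR-L replicates 3 and 7 lay far below the rest. Myl9, the regulatory light chain of non-muscle and smooth muscle myosin, ran from 0.02 over 0.75 to 1.15 in platelet-rich arrays, against -4.99, -1.07 and -0.30 in platelet-poor arrays, a difference of 2.39 ± 0.47. Ptgs1, the cyclooxygenase that starts thromboxane synthesis in platelets, ran from -0.24 over 0.42 to 0.64 in platelet-rich arrays, against -4.84, -1.28 and -0.59 in platelet-poor arrays, a difference of 2.18 ± 0.42. In each of these genes the sets did not overlap.

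The other genes among the 15 largest increases differed by 1.85 to 2.08, and none of them overlapped between the sets. Those with known platelet roles were the granule protein Mmrn1 (1.96 ± 0.39), which binds factor V, the receptor Clec1b (1.93 ± 0.40), which binds podoplanin, and the chemokine Pf4 (1.85 ± 0.36). Cald1, which encodes the actin-binding caldesmon, was higher by 2.06 ± 0.40, and Clu, which encodes the secreted chaperone clusterin, by 1.96 ± 0.38. Slc40a1 encodes ferroportin, the iron exporter of cells, and was higher by 2.01 ± 0.40. Pla1a, a phospholipase that acts on phosphatidylserine, differed by 2.08 ± 0.42 and Lgalsl, a galectin-like protein, by 2.06 ± 0.32. The LIM-domain protein Fhl1 (1.91 ± 0.37), the transcription regulator Tsc22d1 (1.94 ± 0.37), Reep2 (1.94 ± 0.36) and Tmem117 (1.89 ± 0.35) completed the 15. For Tsc22d1, 1 of 2 other probes went the opposite way. The differences given are of means, which very low platelet-poor values widen. Medians of platelet-rich and platelet-poor arrays were 0.47 and -0.96 in Cald1, 0.57 and -0.83 in Slc40a1, and 0.46 and -0.97 in Fhl1. The lowest platelet-poor arrays of these genes were at -4.46, -4.13 and -3.63.

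The probes of a receptor and a granule chemokine are given as examples of genes outside the ranking that varied with it. Treml1 was read at chr9:8018241-8018300, minus strand, and Pf4 at chr14:18812555-18812614, minus strand (rn4). Pf4 lies next to the ranking gene Ppbp on that chromosome.
Treml1 probe: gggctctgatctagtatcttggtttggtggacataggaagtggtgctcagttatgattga
Pf4 probe: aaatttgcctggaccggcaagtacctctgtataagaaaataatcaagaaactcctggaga

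Surface receptors had the highest median of the lists. Of 27 tested members of the receptor list 20 were higher in platelet-rich arrays and 0 lower, with a median difference of 0.94, beside 4.53% higher and a median of -0.0059 over all features. Itga2b, the alpha-IIb chain that pairs with integrin beta-3 to bind fibrinogen, had -0.09, 0.32 and 0.59 in platelet-rich arrays, against -2.44, -1.02 and -0.28 in platelet-poor arrays. It was higher by 1.39 ± 0.22 (limma adjusted p = 0.000266). Its partner is a ranking gene, while Itga2b itself was not.

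The glycoprotein Ib-IX-V complex, which holds platelets to von Willebrand factor under flow, was higher in the members that the ranking had left out. Gp9 had 0.11, 0.38 and 1.03 in platelet-rich arrays, against -3.17, -1.08 and -0.33 in platelet-poor arrays, a difference of 1.81 ± 0.30. Gp5 had 0.07, 0.54 and 0.87 in platelet-rich arrays, against -2.69, -0.97 and -0.07 in platelet-poor arrays, a difference of 1.57 ± 0.26. Gp1ba had 0.09, 0.19 and 0.60 in platelet-rich arrays, against -0.54, -0.16 and -0.02 in platelet-poor arrays, a difference of 0.49 ± 0.074. The sets did not overlap in any of these 3 genes, although the difference of Gp1ba was much the smaller.

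P2rx1, an ATP-gated channel, was higher by 1.13 ± 0.16, the tetraspanin Cd9 by 1.28 ± 0.19 and the laminin receptor chain Itga6 by 0.94 ± 0.13. Pecam1, an adhesion molecule of platelets, leukocytes and endothelium, did not pass the test, with -0.44, -0.02 and 0.66 in platelet-rich arrays, against -0.04, 0.15 and 0.47 in platelet-poor arrays. Selp (P-selectin) was well above background on 1 array and was not tested. No probe carried the names Gp6 or Tubb1.

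**Figure D2:**
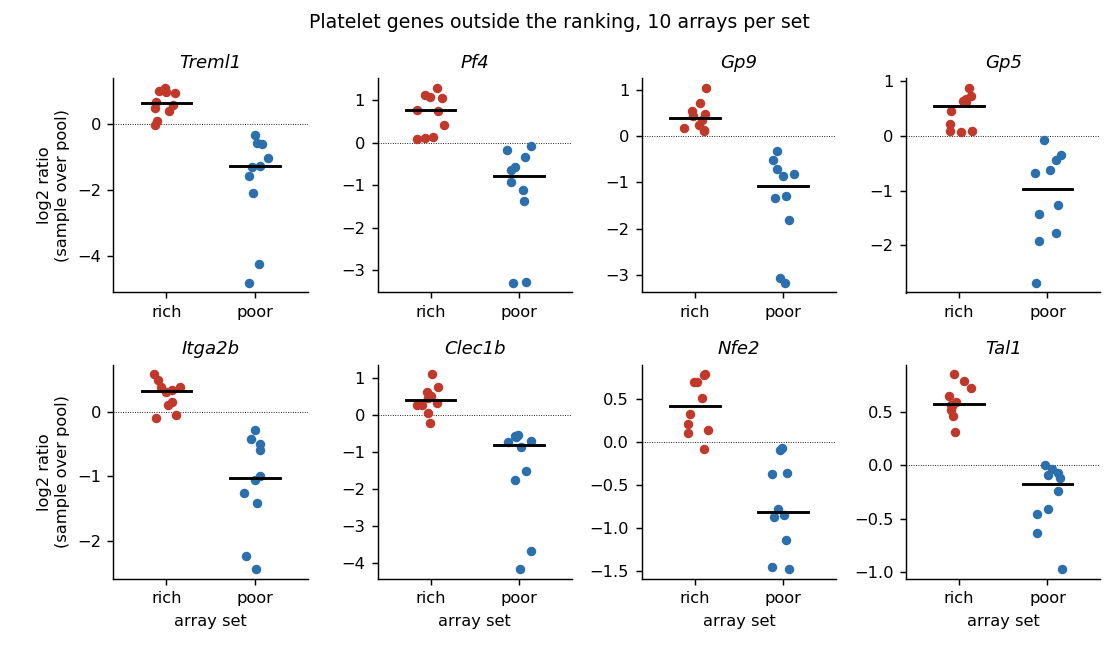
Log2 ratio of sample over pool for 8 genes outside the ranking, in the 10 platelet-rich arrays (left in each panel) and the 10 platelet-poor arrays (right), with 1 point per array and a bar at the median; the vertical axes differ between panels. The sets are apart in Treml1, Pf4, Gp9, Gp5, Itga2b, Clec1b and Tal1, and touch in Nfe2, whose lowest platelet-rich array was at -0.09 and highest platelet-poor array at -0.07.

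Granule cargo was divided. Of 27 tested members 12 were higher and 0 lower, beside 4.53% higher over all features, with a median difference of 0.21. Pf4 had 0.09, 0.75 and 1.28 in platelet-rich arrays, against -3.29, -0.79 and -0.08 in platelet-poor arrays. Factor V (F5), a clotting cofactor, was higher by 1.63 ± 0.25, and Slc18a2, which loads serotonin into dense granules, by 1.27 ± 0.17. Angpt1, an angiogenic ligand, was higher by 1.25 ± 0.18 and thrombospondin Thbs1 by 0.67 ± 0.097. The 15 members that did not pass differed by -0.15 to 0.31.

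Signalling genes included 16 higher and 0 lower of 30, beside 4.53% higher over all features, with a median of 0.35. Plek, the main protein kinase C substrate of platelets, was higher by 0.85 ± 0.11, with 0.14, 0.31 and 0.66 in platelet-rich arrays, against -1.01, -0.47 and 0.01 in platelet-poor arrays. The phosphodiesterase Pde3a was higher by 1.17 ± 0.16, Rgs10, a brake on G protein signalling, by 0.82 ± 0.11, and Rap1b, the small GTPase that turns integrins on, by 0.47 ± 0.061. The 14 members that did not pass differed by -0.093 to 0.32.

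Of the cytoskeleton list 15 of 22 were higher and 0 lower, beside 4.53% higher over all features, with a median of 0.37. Lims1 and Parvb, partners of the integrin-linked kinase, were higher by 1.06 ± 0.12 and 0.96 ± 0.13, Vcl (vinculin) by 1.20 ± 0.18 and the tropomyosin Tpm4 by 0.54 ± 0.066. Taken with the megakaryocyte factors described next, 122 genes of the platelet lists were tested and 65 were higher, beside 4.53% of all features. Of the 122, 3 would have fallen below the filter on dim probes without the platelet-rich arrays, and none of these 3 passed the test.

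Of 16 tested transcription factors of the megakaryocyte line 2 were higher and 0 lower, beside 4.53% higher over all features, and the median difference was -0.011. Nfe2, which drives platelet release, had -0.09, 0.42 and 0.78 in platelet-rich arrays, against -1.48, -0.82 and -0.07 in platelet-poor arrays, and was higher by 1.16 ± 0.18. Tal1, a factor of early blood and the megakaryocyte and red cell lines, had 0.32, 0.58 and 0.86 in platelet-rich arrays, against -0.98, -0.18 and 0.01 in platelet-poor arrays, and was higher by 0.91 ± 0.11 (limma adjusted p = 3.89e-05).

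Gata1, the central factor of both lines, had -0.39, 0.31 and 0.79 in platelet-rich arrays, against -0.74, -0.16 and 0.23 in platelet-poor arrays, and did not pass (0.45 ± 0.15, limma adjusted p = 0.0870). It passed with the level as a continuous term over 31 arrays (0.29 per log2 unit, adjusted p = 0.000209), also with treatment group and slide added (0.31, adjusted p = 0.00148), and between the sets without CR replicate 6 (0.52, adjusted p = 0.0265) or without CR-L replicate 10 (0.51, adjusted p = 0.0466). Gfi1b had -0.51, -0.18 and 0.65 in platelet-rich arrays, against -0.42, -0.14 and 0.84 in platelet-poor arrays. Etv6 stood at -0.16 ± 0.059 and did not pass, but was called lower without WT replicate 2 (-0.19, adjusted p = 0.0448) and with the authors' series values (-0.33, adjusted p = 0.0276).

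Promoters of the platelet lists were read for motifs of factors known to act in megakaryocytes. The sequences are those of RefSeq on build GRCr8, 250 bases before to 50 after a gene's start, and both strands were searched. The words were AGATAA or TGATAA for GATA factors, CAGGAAG for ETS factors and TGAGTCA for NF-E2, a core that AP-1 factors share. Of the 65 platelet-list genes that were higher, 53 had a promoter in the table, and of these 11 (20.8%) held a GATA word, 16 (30.2%) the ETS word and 7 (13.2%) the NF-E2 core. The 57 other tested genes of these lists had 46 promoters, with 17.4%, 19.6% and 0% in the same order. Over all 27457 promoters the shares were 18.6%, 12.4% and 4.53%. The NF-E2 core with TGC before it was counted first, in 1 of the 53 promoters (1.89%), 0 of the 46 and 0.117% of all, and the core alone was added after that count had been seen. These are counts of letters in a window and no test was run on them.

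As examples, 3 promoters with matches are shown, of Gp5 (chr11:83948257-83948556), Clec1b (chr4:164533859-164534158) and Gp1ba (chr10:55851309-55851608), all on the plus strand of GRCr8, with each match in capitals. Gp5 held a GATA word and the NF-E2 core, Clec1b held 1 GATA and 2 ETS words, and Gp1ba held 2 GATA words and 1 ETS word.
Gp5 promoter: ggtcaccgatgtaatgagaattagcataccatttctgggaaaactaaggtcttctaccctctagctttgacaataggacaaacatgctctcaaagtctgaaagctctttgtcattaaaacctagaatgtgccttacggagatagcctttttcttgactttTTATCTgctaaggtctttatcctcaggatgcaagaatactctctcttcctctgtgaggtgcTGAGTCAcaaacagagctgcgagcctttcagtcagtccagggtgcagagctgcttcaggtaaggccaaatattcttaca
Clec1b promoter: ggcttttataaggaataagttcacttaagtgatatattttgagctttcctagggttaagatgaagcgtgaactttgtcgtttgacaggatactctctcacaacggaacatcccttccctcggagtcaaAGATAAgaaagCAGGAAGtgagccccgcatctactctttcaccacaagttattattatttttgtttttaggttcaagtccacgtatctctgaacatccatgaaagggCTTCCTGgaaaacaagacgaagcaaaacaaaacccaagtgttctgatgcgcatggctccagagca
Gp1ba promoter: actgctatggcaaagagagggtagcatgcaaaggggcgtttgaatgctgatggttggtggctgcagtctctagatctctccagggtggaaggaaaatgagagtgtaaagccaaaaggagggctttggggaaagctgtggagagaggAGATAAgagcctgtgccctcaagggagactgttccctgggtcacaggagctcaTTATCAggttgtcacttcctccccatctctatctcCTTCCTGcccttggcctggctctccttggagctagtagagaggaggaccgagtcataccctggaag

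Vwf and Itgb3 are also made by endothelial cells, so markers of those cells were read beside the ranking. Of 18 genes on the endothelial list 10 were tested, 3 were higher and 0 lower, beside 4.53% higher over all features, and 8 were below the filter, among them Tek, Emcn and Cldn5. The vascular cadherin Cdh5 did not pass, with -0.16, -0.14 and -0.01 in platelet-rich arrays, against -0.11, -0.01 and 0.26 in platelet-poor arrays; without CR-L replicate 11 it passed as lower (-0.15, limma adjusted p = 0.0396). Esam, an adhesion molecule that platelets also carry, was higher by 0.60 ± 0.11. Kdr, a receptor for vascular endothelial growth factor, was higher by 0.68 ± 0.19 (adjusted p = 0.0341) and Egfl7 by 0.18 ± 0.049 (adjusted p = 0.0314).

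The calls of Kdr and Egfl7 were close to the threshold. With slide as a fixed block neither passed (Kdr 0.59, limma adjusted p = 0.156; Egfl7 0.16, adjusted p = 0.301). Egfl7 also did not pass with treatment group as a covariate (adjusted p = 0.0877), the red channel alone (0.299), the authors' series values (0.152) or the continuous term (0.0775). With median red intensity as a covariate neither passed (Kdr adjusted p = 0.0577, Egfl7 0.0588). With the continuous term, treatment group and slide neither did (0.186 and 0.145). Kdr did not pass without any 1 of 10 arrays, with 0.58 to 0.67 and adjusted p from 0.0555 to 0.0707. Those arrays were CR replicates 2 and 6, CR-L replicates 1, 2, 3, 7 and 9, and WT replicates 1, 6 and 7. Egfl7 did not pass without any 1 of 10 arrays either, with 0.16 to 0.18 and adjusted p from 0.0527 to 0.0668. Those were CR replicates 2, 3, 4 and 9, CR-L replicates 1, 2, 3 and 4, and WT replicates 6 and 7. Without both CR-L replicates 3 and 7 neither gene passed (Kdr 0.63, adjusted p = 0.115; Egfl7 0.18, adjusted p = 0.0821).

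No marker of the lymphocytes and monocytes that make up PBMC passed the test between the sets. Of 21 T cell, 16 B cell, 16 NK cell and 18 monocyte genes tested, 0 were higher and 0 lower in platelet-rich arrays, with medians of 0.027, -0.13, -0.080 and -0.19. Over all features 4.53% were higher and 0.426% lower. Below 0 were 17 of 18 monocyte, 14 of 16 B cell, 14 of 16 NK cell and 7 of 21 T cell genes, where 11603 of all 22041 features were. The mean over the members of the monocyte list ran from -0.51 to 0.28 in platelet-rich arrays, against -0.16 to 0.33 in platelet-poor arrays. Cd14, a lipopolysaccharide co-receptor of monocytes, stood at -0.46 ± 0.19, Tlr2 at -0.39 ± 0.19, Fcgr3a at -0.35 ± 0.14 and Cybb at -0.21 ± 0.092. With the level as a continuous term over all 31 arrays 7 of the 18 monocyte genes were lower as the level grew, Fcgr3a and Tlr2 among them. In that fit 447 of 22041 features were lower.

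The lymphocyte genes nearest to the threshold did not pass in the comparison of all 20 arrays. Of the B cell list Cd22 stood at -0.29 ± 0.11, Vpreb3 at -0.37 ± 0.17, Ly86 at -0.21 ± 0.12 and Bank1 at -0.24 ± 0.18. Cd22 passed without WT replicate 1 (-0.36, limma adjusted p = 0.0329). Of the T cell list Lat (0.10), Trat1 (0.12), Cd8a (-0.10) and Tcf7 (-0.16) were closest. Of the NK list Ctsw, a protease of cytotoxic cells, stood at 0.40 ± 0.13 and passed without WT replicate 2 (0.48, adjusted p = 0.00766) or CR replicate 11 (0.45, adjusted p = 0.0400). Klrk1 (0.16), Tbx21 (-0.13) and Nkg7 (-0.21) did not.

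Red cell and granulocyte genes spread widely in both sets. Of 29 erythroid genes 1 was higher and 0 lower, no more than the 4.53% of all features that were higher, and the mean over the list ran from -1.38 to 1.13 in platelet-rich arrays, against -1.26 to 0.62 in platelet-poor arrays. The gene that passed was Epor, the erythropoietin receptor (0.20 ± 0.051), though not with slide as a fixed block (limma adjusted p = 0.0659), the authors' series values (0.231), or the level as a continuous term over 31 arrays, alone (0.226) or with treatment group and slide (0.0910). Rhag, a Rhesus-associated membrane protein, ran from -2.05 over 0.45 to 1.75 in platelet-rich arrays, against -3.03, -1.06 and -0.12 in platelet-poor arrays, and its difference of 1.23 ± 0.46 did not pass. Rhag passed with the continuous term (0.91 per log2 unit, limma adjusted p = 0.000162), also with treatment group and slide added (0.92, adjusted p = 0.00289). Between the sets it passed without CR replicate 6 (1.48, adjusted p = 0.0442) or without CR-L replicate 10 (1.47, adjusted p = 0.0464), while the globin gene Hbb (-0.93) and Alas2 (-0.75), the first enzyme of heme synthesis, were on the other side of 0 and did not pass. Xk (0.54) and Gypc (0.17) did not pass.

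Of 15 granulocyte genes 0 passed, beside 4.95% of all features. S100a9 ran from -2.54 over -0.43 to 2.53 in platelet-rich arrays, against -0.40, 0.14 and 1.54 in platelet-poor arrays. S100a8 (-0.68), Il1r2 (-0.43) and Hp (-0.17) did not pass either. In the 11 arrays in neither set 0 of the 15 granulocyte and 5 of the 29 erythroid genes had a slope above 0, where 47.5% of all features did. The proliferation list had 0 higher and 1 lower of 24, beside 4.53% higher and 0.426% lower over all features. That gene was Pcna, the sliding clamp of DNA replication (-0.31 ± 0.078). Pcna did not pass with slide as a fixed block (limma adjusted p = 0.114), the authors' series values (0.0611) or the mean of all its probes (0.124). Ccnb2 (0.11), Ccna2 (0.086) and Rrm2 (0.052) did not pass.

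Of 28 tested nuclear-encoded genes of the respiratory chain 2 were higher and 0 lower, with a median of -0.033, a share near the 4.53% of all features. Cox5a, a subunit of complex IV, had -0.04, 0.17 and 0.40 in platelet-rich arrays, against -0.54, -0.30 and -0.20 in platelet-poor arrays, and was higher by 0.49 ± 0.056 without overlap. Ndufa1, of complex I, was higher by 0.42 ± 0.072. Ndufa5 (-0.11 ± 0.043) and Sdhb (-0.084 ± 0.037) did not pass.

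**Figure D3:**
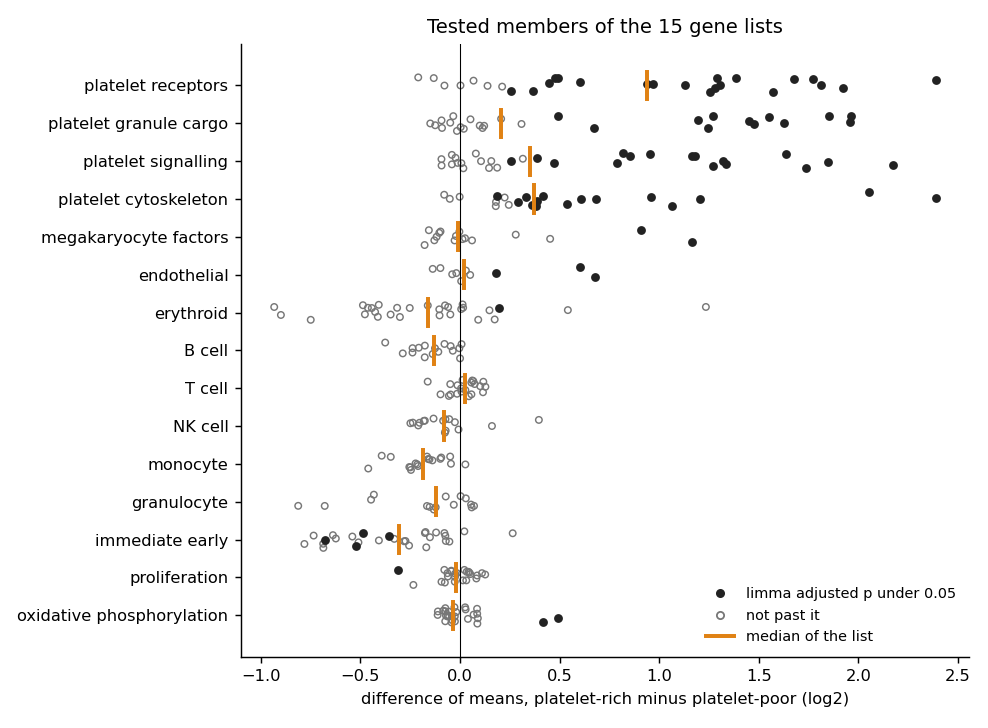
Difference of means, platelet-rich minus platelet-poor, in log2 for every tested member of 15 gene lists, 1 point per gene, filled where the limma adjusted p was under 0.05, with a bar at the median of each list. The 4 platelet lists of receptors, granule cargo, signalling and cytoskeleton extend to the right with medians of 0.94, 0.21, 0.35 and 0.37, and the immediate early list lies to the left with a median of -0.31.

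Genes that were lower in platelet-rich arrays included several of the immediate early response, the genes that blood cells switch on within minutes of a stimulus or of handling. Of 28 tested 0 were higher and 4 lower, where 0.426% of all features were lower. The median was -0.31, and 26 of 28 were below 0, where 11603 of all 22041 features were. The mean over the list ran from -0.64 to 0.21 in platelet-rich arrays, against -0.092 to 0.37 in platelet-poor arrays. The number that passed went from 1 with slide as a fixed block to 11 with the level as a continuous term over 31 arrays. Over all 22041 features the lower counts in those fits were 30 and 447.

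Junb, a subunit of the AP-1 factor, had -1.29, -0.29 and 0.03 in platelet-rich arrays, against -0.12, 0.29 and 0.59 in platelet-poor arrays, and was lower, at -0.68 ± 0.14 (limma adjusted p = 0.00247). Dusp1, a phosphatase that shuts off stress kinases, had -0.75, -0.11 and 0.61 in platelet-rich arrays, against 0.14, 0.40 and 0.70 in platelet-poor arrays, and was lower, at -0.52 ± 0.12. Btg2, an antiproliferative protein, had -0.43, -0.24 and 0.32 in platelet-rich arrays, against -0.27, 0.36 and 0.67 in platelet-poor arrays, and was lower, at -0.48 ± 0.11. In each of them the sets overlapped. The highest platelet-rich array of Dusp1 lay above its platelet-poor median, and the lowest platelet-poor array of Btg2 lay below its platelet-rich median. Ppp1r15a, which restarts translation after stress, was at -0.36 ± 0.090.

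The mRNA decay factor Zfp36l2 had -0.81, -0.24 and -0.04 in platelet-rich arrays, against -0.53, 0.15 and 0.98 in platelet-poor arrays, and was lower, at -0.57 ± 0.15. The kinase Sgk1 (-0.36 ± 0.093), the histone demethylase Kdm6b (-0.36 ± 0.091), Chrne (-0.39 ± 0.097), Gckr (-0.32 ± 0.088) and Phlda1 (-0.32 ± 0.090) completed the 10 largest decreases past the threshold. With slide as a fixed block 9 of the 10 no longer passed, all but Junb, at -0.26 to -0.55 and limma adjusted p from 0.0678 to 0.293. Without both CR-L replicates 3 and 7, Sgk1, Kdm6b, Ppp1r15a and Phlda1 did not pass (-0.36 to -0.29, adjusted p from 0.0531 to 0.123). With the level as a continuous term over 31 arrays, Dusp1, Zfp36l2, Chrne, Sgk1 and Gckr did not (adjusted p from 0.0828 to 0.367). With the mean of all probes of a symbol, Kdm6b and Phlda1 did not pass (adjusted p = 0.144 and 0.0692). Gckr did not pass with the deposited ratio (0.369), and Gckr, Zfp36l2 and Sgk1 did not with the red channel alone (0.526, 0.0656 and 0.0670). With the authors' series values Zfp36l2, Kdm6b, Gckr and Phlda1 did not pass (adjusted p from 0.0578 to 0.0897). Gckr did not pass without any 1 of 6 arrays, namely CR replicates 3, 6 and 9, CR-L replicates 6 and 13 and WT replicate 7 (-0.29 to -0.31, adjusted p from 0.0555 to 0.0668). Phlda1 did not pass without any 1 of 15 arrays (-0.27 to -0.33, adjusted p from 0.0511 to 0.0806). Those were CR replicates 2, 3, 6, 9 and 11, CR-L replicates 2, 3, 4, 6, 7, 9 and 13, and WT replicates 1, 2 and 7.

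**Figure D4:**
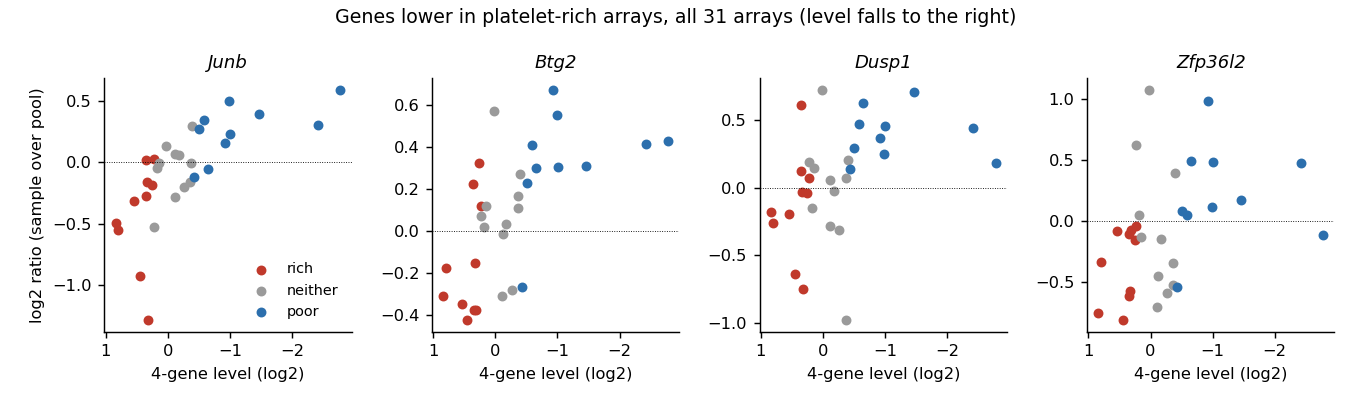
Log2 ratio of sample over pool for Junb, Btg2, Dusp1 and Zfp36l2 against the 4-gene level (log2, falling to the right) on all 31 arrays, coloured by set. Junb is higher towards the right through all sets, with a slope of -0.37 in the arrays in neither set, whereas the grey points of Dusp1 and Zfp36l2 slope the other way (0.72 and 1.04).

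The 11 arrays in neither set gave values that the comparison had not used. Over them limma with the level as a continuous term called 0 features after adjustment and 1145 at an unadjusted p under 0.05 (5.19%), in a range of level of less than 1 log2 unit. Of the 998 features higher in platelet-rich arrays 857 (85.9%) had a slope above 0 there, where 47.5% of all features did. Of the 94 lower features 53 (56.4%) had a slope below 0, where 52.5% of all features did. The higher side thus kept its direction in most features, and the lower side did so at about the rate of all features.

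By list the same difference between sides appeared. Slopes above 0 were found in 22 of 27 receptor, 19 of 27 granule, 27 of 30 signalling and 20 of 22 cytoskeleton genes, and in 14 of 28 immediate early genes. Over all features 47.5% had such a slope. A high share was not particular to the platelet lists, since 16 of 21 T cell and 20 of 28 respiratory chain genes had slopes above 0 as well. It was low in other lists, with 5 of 29 erythroid and 0 of 15 granulocyte genes. Treml1 had a slope of 1.47 (unadjusted p = 0.00169), Ptgs1 of 1.19, Clec1b of 1.39 and Itga2b of 0.90, none past adjustment. Nfe2 had 0.96, Tal1 0.45 and Gata1 0.53. Junb had -0.37, Ppp1r15a -0.27, Btg2 0.05, Dusp1 0.72 and Zfp36l2 1.04.

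**Figure D5:**
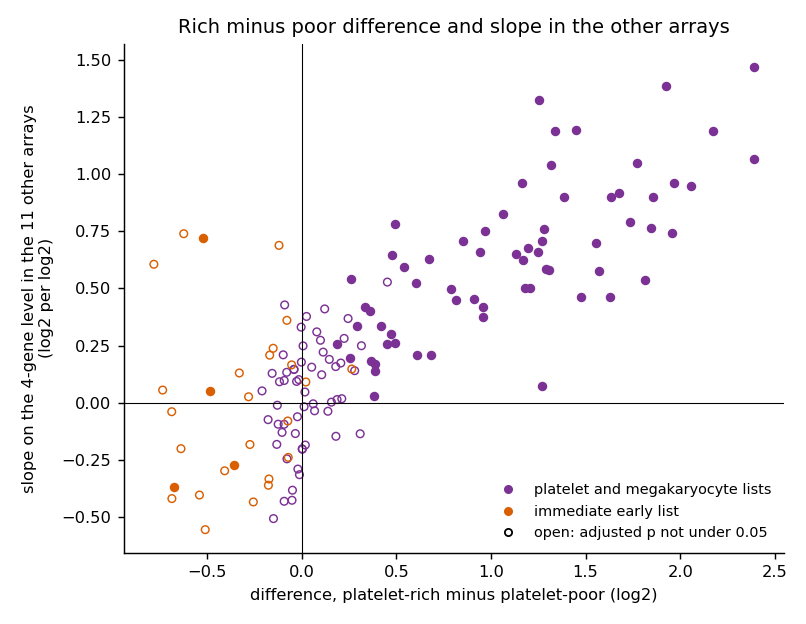
Each point is a tested gene of the platelet and megakaryocyte lists or of the immediate early list, placed by its difference between platelet-rich and platelet-poor arrays (log2) and by its slope on the 4-gene level in the 11 other arrays (log2 per log2), filled where the difference had a limma adjusted p under 0.05. Platelet genes with large differences have slopes above 0, up to 1.47 for Treml1, while immediate early genes lie on both sides of 0.

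Differences were also read within slides and treatment groups. On the 6 slides with both sets the mean of the receptor list was higher in platelet-rich arrays on 6, by 0.57 to 1.74. Within the 3 treatment groups it was higher by 0.54 to 1.22. That mean was 0.042 at lowest in platelet-rich arrays and -0.16 at highest in platelet-poor arrays, so its direction was fixed in any split. The mean of the immediate early list was lower on all 6 slides, at -0.99 to -0.036, and in all 3 treatment groups, at -0.49 to -0.053. Single genes turned on some slides. Of the 10 largest decreases, Sgk1 (0.31), Zfp36l2 (0.20), Kdm6b (0.10), Btg2 (0.093) and Ppp1r15a (0.060) were higher in platelet-rich arrays on 1 of 6 slides, and Gata1 was lower on 1 (-0.25). Treml1, Pf4, Gp9, Gp5 and Itga2b were higher on all 6 slides and in all 3 treatment groups. The sets did not overlap in any of these genes, so every split of the same arrays had to give that direction.

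Over all 31 arrays, with a mean for each treatment group, 1469 features had a slope on the 4-gene level in limma at an adjusted p under 0.05 (6.66%), 1037 above 0 (4.7%) and 432 below (1.96%). Per log2 unit of the level Treml1 moved by 1.597, Myl9 by 1.59, Ptgs1 by 1.46 and Pf4 by 1.24. The level is from the deposited ratios, and the gene values are from the normexp and loess ratios described below. On the latter the mean of the 4 genes ran from 0.80 in CR-L replicate 4 to -2.37 in CR-L replicate 3. The slopes are thus not a direct comparison with the 4 genes. Gp9 moved by 1.15, Gp5 by 0.95, Itga2b by 0.86, Nfe2 by 0.67 and Gp1ba by 0.25. Between CR-L and CR the slopes differed in 0 features after adjustment in limma, and in 2408 at an unadjusted p under 0.05 (10.9%). Of the 998 higher features 998 had a slope above 0 within CR-L, 994 within CR and 973 within WT, but these groups contain the arrays of the sets.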

How the data were processed

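Agilent 2-colour arrays of rat PBMC were analysed, 1 array per sample (7 WT, 11 CR, 13 CR-L, grouped by title). Spot intensity and background intensity were extracted by the authors with Agilent Feature Extraction 10.7.3.1, per the submitters' processing notes. The deposited log10 ratio of red over green is dye-normalized, per the file headers, and was turned into log2 for the ranking. The authors also deposited a table of log2 values for the series. Its columns followed each array's own log2 red channel (correlation over probes 0.983 to 0.993) and not a ratio, each column had a median of 8.17, and its further normalization is not given in the sources used here.

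For all other values, mean intensities were corrected with limma 3.58.1 in R 4.3.3, using normexp (offset 50) and then loess within arrays. Control spots (1639 of 45018) and outlier spots (0.408% of values) were left out and the spots of a probe averaged, giving 41012 probes. The filter asked for a red signal well above background on 7 or more arrays (26721 probes), and the brightest probe stood for each symbol. With the 5 probes of the ranking genes removed, 22041 features remained, 12044 of them with a symbol. Names came from the files, updated through a RefSeq table of GRCr8; 17434 probes had none. Probe positions are rn4, as deposited.

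Sets and slopes were tested with limma (lmFit, eBayes), two-sided, Benjamini-Hochberg over all features, with a threshold of 0.05. Array measures were compared by permutation with 100000 resamples (SciPy 1.17.1, Python 3.11.15). The level by treatment is given as a description. Precision is limited by how many arrays there are. The ranking by normexp ratios shared 9 platelet-rich and 9 platelet-poor arrays with the one used, that by the authors' values of the series shared 10 and 9.

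Named genes are the 15 largest higher and 10 largest lower differences past the threshold with an established symbol, the 4 members at most of each of 15 lists that had the lowest p, and 16 platelet-related genes named in any case. Some genes that the rule takes are left out of the text. Other genes named were chosen after their values were seen. The ranking genes, the lists and this rule were chosen with earlier results of these data known. The fits were tested on simulated data. Alternatives were other background corrections, normalizations, filters, channels, covariates, and each array left out.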

Additional observations from a re-analysis of the deposited data

Results flagged for a closer look

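Of 177 sets of array values examined for a single value far from the others, 5 held one, or 2.82%, where chance gives about 1 in 20. The rule looks at a single extreme value at a time, so CR-L replicates 3 and 7, which lay low together, can hide each other. Treml1 was not flagged, with a lowest platelet-poor array at -4.80 and a median of -1.28. The rate therefore does not show that outlying values were few. WT replicate 6 had a median red intensity of 235 (next platelet-poor array 89.5) and 83.6% of red spots well above background (next 65.0%). Without it 1036 features passed between platelet-rich and platelet-poor arrays. Among genes in platelet-poor arrays, Btg2 was at -0.27 in CR replicate 4 (next 0.23), Ccna2 at -0.31 in CR replicate 9 (next -0.053) and Pde3a at -1.51 in CR-L replicate 3 (next -0.74).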

How the results depend on the processing

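The count of 1092 features stayed within 1.5 times under every alternative run, lowest with slide as a fixed block (779 higher, 30 lower) and highest at 1512 with the level as a continuous term over 31 arrays, and from 966 to 1202 with an array left out. The share higher in platelet-rich arrays was 91.4%, against 70.4% with the continuous term, so the lower side holds 447 features there. With treatment group and slide added, a setting chosen after seeing the data, 1278 features passed, 73.6% of them higher. Leaving out CR-L replicates 3 and 7, also chosen after seeing the data, gave 858. With the replicate number as a random block 1103 features passed at a shared correlation of -0.026, so the numbers did not pair the samples. The log ratio as deposited gave 1067 features, and 1758 for the slope over 31 arrays.

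The level in CR-L against WT was near 0 and its sign turned, to -0.052 with the replicate block and -0.042 with slide as a block. With an array left out that difference ran from -0.11 to 0.25, that of CR against WT from 0.30 to 0.58, and that of CR-L against CR from -0.52 to -0.22. Signs also turned for Rrm2 (-0.059 with the deposited ratio, -0.077 with the series table), Bank1 (0.039 with slide as a block, 0.037 with the continuous term, treatment group and slide), Gfi1b (0.0074) and Pecam1 (0.00021) under that last setting. Of the gene-level values, 2888 kept direction and side of the threshold, 99 kept direction and lost the call, and 17 gained one. With scale normalization between arrays Btg2, Dusp1, Chrne, Zfp36l2 and Gckr stayed lower without passing limma (adjusted p from 0.0681 to 0.196). No gene among the 15 largest increases lost its call. Litter and sex could not be entered in any fit.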

Other observations

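Histone genes, looked at after their values had been seen, split by class. Of 5 tested H2B genes 4 were higher in platelet-rich arrays and 0 lower, with a median difference of 1.31, beside 4.53% higher and a median of -0.0059 over all features, whereas 0 of 14 H2A and 0 of 5 H1 genes were called by limma in either direction. Hist1h2bq had 0.11, 0.36 and 0.95 as its lowest, median and highest log2 ratio in platelet-rich arrays, against -2.38, -0.85 and -0.25 in platelet-poor arrays, a difference of 1.505 ± 0.25. H2bc12 had 0.066, 0.44 and 0.84 in platelet-rich arrays, against -1.53, -0.65 and -0.13 in platelet-poor arrays, a difference of 1.15 ± 0.16. The sets did not overlap in either gene.

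Hist1h2bg and Hist1h2bd were higher by 1.39 ± 0.22 and 1.31 ± 0.21, and Hist3h2ba stood at 0.082 ± 0.15. Of the H3 genes H3c1 was higher (0.64 ± 0.10) and the other 4 were not called, and of 3 H4 genes 2 were higher, by 0.21 and 0.28. In the 11 arrays in neither set the slopes of the 4 H2B genes that were higher ran from 0.64 to 1.03. H3c1 had 0.42 there, while the 2 H4 genes that were higher had -0.019 (Hist1h4b) and 0.0086 (Hist1h4m). H2B genes are near-identical in sequence, so their probes may read each other's RNA and the 4 values are not separate evidence. Which H2B gene was the source was not tested.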
